A study of Mus musculus with 2 samples.

Results

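The splicing factor and hnRNP genes were examined in a list of Sap130 binding sites from embryonic mouse brain. They were taken from the authors' peak table by symbol, as every peak annotated with a gene whose name begins with Srsf, Hnrnp, Snrp, Sf3, Prpf, Lsm followed by a digit, or U2af, with the imprinted gene Snrpn left out. This gave 77 of 16231 peaks, on 64 of the 10751 genes that the table names. The choice rested on the gene name and on the presence of a peak with that label. Neither the width of a peak nor its rank in the list was used. Position did enter, because a label needs a peak centre within 1 kb of a transcript start. Some broad peaks that cover a start but are centred further inside the gene were left out in this way. The 77 peaks lay on 18 chromosomes, and 1 of them was on X.

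The peaks come from ChIP-seq, a method that uses an antibody to pull down a protein with the chromatin it sits on and then sequences that DNA. The study had 1 library made with 2 µg of a rabbit antibody to Sap130 and 1 library of input DNA, the chromatin before enrichment. Both were brain of B6 wildtype embryos at E13.5, a stage of mid-gestation. There was no second library of either kind and no other genotype or stage, so no result below has a replicate check, and no test between samples could be made. The deposited table gives no peak height, score or read total, so the sequencing depth behind each peak is unknown. What it gives for a peak is its position, its width, its running number in the list (called its place, with 1 as the first peak) and, for 12656 of the peaks, 1 gene with a RefSeq transcript model whose start lies within 1 kb of the peak centre.

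Sap130 belongs to the Sin3 corepressor, a large assembly whose histone deacetylases remove acetyl groups from nucleosomes. Pre-mRNA splicing is carried out by the spliceosome, which is built from small nuclear ribonucleoproteins (snRNPs): small RNAs held in rings of Sm or Lsm proteins, with further proteins that recognise splice sites and drive the rearrangements. SR proteins, encoded by the Srsf genes, mostly help splice sites to be used, and hnRNPs, which coat nascent RNA, often oppose them. The developing brain is a tissue in which alternative splicing is especially rich.

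Sap130 peaks were named for, or stood at an end of, nearly all genes of these 7 families. RefSeq lists 81 protein-coding genes with such names on the autosomes and X and with a curated transcript, and 64 of them (79.0%, exact 95% interval 68.5 to 87.3, counting error only) were named on a peak. Over all 20953 protein-coding genes, the share was 49.2%. A further 4 genes had a peak under an older symbol and 12 had one overlapping the 1 kb around a gene end that was labelled with a neighbour or with no gene. 1 of the 81, Hnrnpa1l2-ps2 on chromosome 15, had neither a label nor a peak at either end. The 80 genes with a peak of some label make up 98.8%. Counted by overlap with the 1 kb around the RefSeq gene ends alone, the figure was 78 of 81 (96.3%), against 52% of all protein-coding genes. The Srsf family (11 of 11 genes) and the Prpf family (13 of 13) were named in full. The table named 13 of 21 Hnrnp genes, 9 of 11 Snrp genes, 7 of 9 Sf3 genes, 9 of 13 Lsm genes and 2 of 3 U2af genes.

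**Figure D1:**
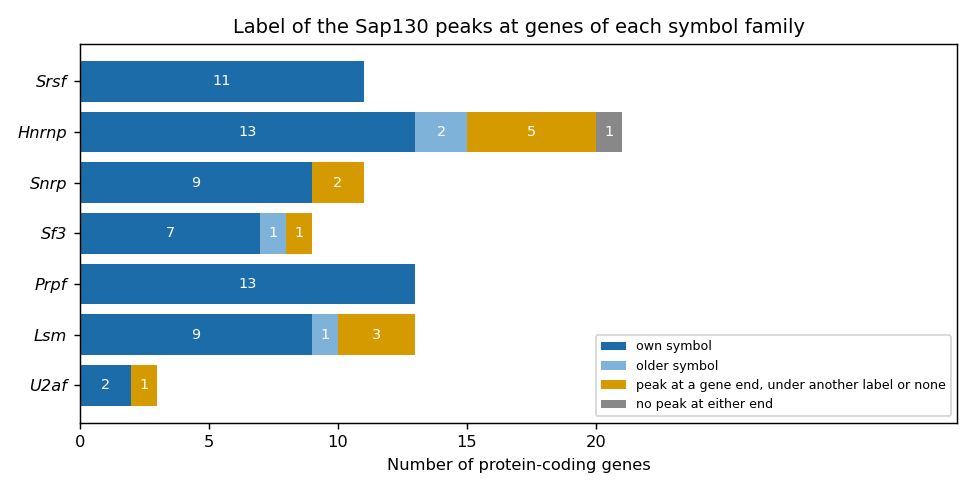
Number of protein-coding genes (x axis) in each symbol family (y axis), split by how the authors' table labels the Sap130 peak at the gene. All 11 Srsf and 13 Prpf genes carry their own symbol, while 5 Hnrnp, 2 Snrp, 1 Sf3, 3 Lsm and 1 U2af gene have a peak at a gene end that is labelled with another gene or with none.

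The 12 genes with a peak but no label of their own included some of the best known hnRNPs. Hnrnpu, which encodes a nuclear matrix-associated hnRNP, had a 3277 bp peak without a label at place 293 (chr1:178334894-178338171). It covered the RefSeq start of Hnrnpu, but its centre lay 1282.5 bp downstream of the start, beyond the distance at which the table gives labels. A 2487 bp peak labelled Cox20 stood at the other end of Hnrnpu, at place 3010 (chr1:178317676-178320163). At Hnrnpa2b1, a 2702 bp unlabelled peak at place 1548 (chr6:51467203-51469905) covered the start with its centre 1291 bp downstream of the start. Its start also had neighbouring peaks labelled Cbx3, of 1605 bp at place 4517 (chr6:51470628-51472233) and 467 bp at place 8900 (chr6:51470058-51470525).

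Other hnRNP genes carried a neighbour's label. Hnrnpk, a poly(C)-binding hnRNP, had a 2677 bp peak at place 578 labelled Rmi1 (chr13:58400393-58403070), centred 385.5 bp downstream of the start. At Hnrnpa1, an A/B-type hnRNP, a 1196 bp peak at place 2726 (chr15:103240411-103241607) was labelled Gm5643 and centred 612 bp downstream of the start. A 1467 bp peak at place 5347 (chr15:103238805-103240272), centred 858.5 bp upstream of the start, was labelled with the chromobox gene Cbx5. At Hnrnpul2, a relative of Hnrnpu, a 2195 bp peak at place 1730 (chr19:8819550-8821745) had no label and an 800 bp peak at place 9052 (chr19:8818617-8819417) was labelled Ttc9c.

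At 7 further genes, most of them encoding parts of snRNPs, the table gave the peak to a neighbour. Snrpa, the U1 snRNP A protein, had 1584 bp at place 659 labelled BC024978 (chr7:27195139-27196723), centred 171 bp upstream of the start. Snrpf, an Sm ring protein, had 1321 bp at place 1441 labelled 4933408J17Rik (chr10:93588725-93590046), centred 272.5 bp downstream of the start. Sf3a2, of the SF3A complex, had 2249 bp at place 901 labelled Plekhj1 (chr10:80797283-80799532), centred 327.5 bp upstream of the start. These 3 peaks all covered the start of the splicing gene. Lsm7 had 1127 bp at place 1064 labelled Sppl2b (chr10:80854687-80855814), centred 41.5 bp upstream of the start, and Lsm3 had 1362 bp at place 3812 labelled Xpc (chr6:91515108-91516470), centred 246 bp upstream of the start. Lsm1, of the cytoplasmic ring that acts in mRNA decay, had 1268 bp at place 1101 labelled Bag4 (chr8:25784709-25785977). U2af1l4, a relative of the small U2AF subunit, had 1204 bp at place 3435 labelled Psenen (chr7:30562621-30563825), centred 117 bp upstream of the start. Of the 12 genes, 10 have a start in the RefSeq promoter table used here, and a peak covered that start at 9 of them, with Hnrnpa1 the exception.

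The 4 older symbols were as follows. Hnrpdl stood for Hnrnpdl, a relative of Hnrnpd (3483 bp at place 554, chr5:100037366-100040849, centred 114.5 bp downstream of the start), and Hnrpll for Hnrnpll, a relative of Hnrnpl (2675 bp at place 3280, chr17:80060223-80062898). The label 0610009D07Rik stood for Sf3b6, the SF3B protein at the branch point (1067 bp at place 5974, chr12:4817079-4818146, centred 4.5 bp downstream of the start). Naa38 stood for Lsm8, the ring member that marks the nuclear Lsm ring, with 1108 bp at place 10201 (chr6:18848125-18849233, centred 44 bp downstream of the start) and 267 bp at place 14946 (chr6:18849312-18849579, centred 810.5 bp downstream of the start).

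The promoter of the earliest member of each family with a window is shown, as most windows lay at least in part under the earliest peak labelled with the gene. The peaks reach well beyond these windows, with a median downstream edge 780 bp past the start, so much of the sequence under them is not shown. Of the 64 member genes, 55 had a promoter window in the RefSeq table (GRCm38.p6), running from 250 bases before the start to 50 bases from it. The earliest peak labelled with the gene covered all 300 bases in 31 cases, part of them in 21 and none in 3 (Hnrnpm, Hnrnph2 and Hnrnpa3). The Hnrnpa3 window did overlap a peak labelled Gm6793, described below. Each sequence is written 5′ to 3′ on the strand of its gene, and capitals mark matches on either strand to any of 10 short motifs spelled out with the motif counts further on. The windows are chr11:88047123-88047422 (plus strand) for Srsf1, chr11:51606832-51607131 (minus) for Hnrnpab, chr6:56704650-56704949 (minus) for Lsm5, chr19:10894981-10895280 (plus) for Prpf19, chr17:31658705-31659004 (minus) for U2af1, chr11:4160104-4160403 (plus) for Sf3a1, and chr7:66060086-66060385 (plus) for Snrpa1. Hnrnpd, chr5:99978889-99979188 (minus), is added as a gene whose own label sits beside a broader unlabelled peak.
Srsf1: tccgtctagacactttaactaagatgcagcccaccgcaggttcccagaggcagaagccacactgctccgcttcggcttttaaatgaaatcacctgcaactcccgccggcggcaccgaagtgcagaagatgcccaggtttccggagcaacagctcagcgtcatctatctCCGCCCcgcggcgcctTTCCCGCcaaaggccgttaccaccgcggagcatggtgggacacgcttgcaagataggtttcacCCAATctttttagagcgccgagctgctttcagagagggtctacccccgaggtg
Hnrnpab: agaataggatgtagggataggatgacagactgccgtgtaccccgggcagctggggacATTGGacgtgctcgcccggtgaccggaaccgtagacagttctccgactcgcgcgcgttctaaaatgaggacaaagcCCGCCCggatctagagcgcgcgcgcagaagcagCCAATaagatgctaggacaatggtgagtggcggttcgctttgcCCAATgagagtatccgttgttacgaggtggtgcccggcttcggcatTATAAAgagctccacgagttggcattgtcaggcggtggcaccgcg
Lsm5: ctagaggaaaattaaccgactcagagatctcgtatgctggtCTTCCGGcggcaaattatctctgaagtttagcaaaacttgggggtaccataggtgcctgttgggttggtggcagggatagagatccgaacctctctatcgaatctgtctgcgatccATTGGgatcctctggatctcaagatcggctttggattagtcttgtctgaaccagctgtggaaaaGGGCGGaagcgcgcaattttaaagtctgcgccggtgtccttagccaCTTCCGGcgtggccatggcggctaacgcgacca
Prpf19: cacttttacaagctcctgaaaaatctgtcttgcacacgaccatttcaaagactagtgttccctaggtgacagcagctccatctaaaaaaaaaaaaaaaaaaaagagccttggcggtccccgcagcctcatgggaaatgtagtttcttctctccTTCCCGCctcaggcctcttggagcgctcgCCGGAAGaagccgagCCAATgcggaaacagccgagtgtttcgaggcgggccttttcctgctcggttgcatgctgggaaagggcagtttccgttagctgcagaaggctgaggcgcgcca
U2af1: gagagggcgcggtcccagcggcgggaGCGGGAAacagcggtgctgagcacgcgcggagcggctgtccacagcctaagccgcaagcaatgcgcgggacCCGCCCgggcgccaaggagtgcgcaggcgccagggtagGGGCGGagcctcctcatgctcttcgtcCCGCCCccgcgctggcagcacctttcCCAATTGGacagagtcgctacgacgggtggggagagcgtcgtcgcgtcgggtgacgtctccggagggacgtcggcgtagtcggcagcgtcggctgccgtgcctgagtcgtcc
Sf3a1: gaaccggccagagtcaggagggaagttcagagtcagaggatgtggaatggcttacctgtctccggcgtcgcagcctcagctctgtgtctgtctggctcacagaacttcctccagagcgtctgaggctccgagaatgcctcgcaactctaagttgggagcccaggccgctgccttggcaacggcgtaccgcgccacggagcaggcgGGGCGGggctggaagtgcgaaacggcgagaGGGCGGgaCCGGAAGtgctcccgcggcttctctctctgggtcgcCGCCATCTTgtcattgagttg
Snrpa1: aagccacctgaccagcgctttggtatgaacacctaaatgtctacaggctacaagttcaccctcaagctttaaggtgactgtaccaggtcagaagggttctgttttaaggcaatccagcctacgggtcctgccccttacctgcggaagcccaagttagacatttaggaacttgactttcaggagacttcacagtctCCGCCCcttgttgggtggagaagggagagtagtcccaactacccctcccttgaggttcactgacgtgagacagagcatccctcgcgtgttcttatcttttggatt
Hnrnpd: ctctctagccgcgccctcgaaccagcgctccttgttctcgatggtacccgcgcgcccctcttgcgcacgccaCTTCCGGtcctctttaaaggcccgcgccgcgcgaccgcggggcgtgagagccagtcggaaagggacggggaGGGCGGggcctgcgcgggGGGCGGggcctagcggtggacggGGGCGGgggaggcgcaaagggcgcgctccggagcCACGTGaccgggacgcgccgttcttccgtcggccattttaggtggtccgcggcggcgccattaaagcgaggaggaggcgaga

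The SR protein genes held both the earliest and the widest of the 77 peaks. Srsf1, which encodes the founding SR protein, carried a 2377 bp peak at place 94 (chr11:88046946-88049323), with its centre 761.5 bp downstream of the start. It reached from 427 bp upstream of the start to 1950 bp inside the gene. Srsf2, a regulator of exon inclusion, carried the widest of the 77 peaks, 3481 bp at place 257 (chr11:116850786-116854267), centred 567.5 bp downstream of the start and reaching 2308 bp into the gene. Srsf10, a splicing repressor when dephosphorylated, had a 1631 bp peak at place 201 (chr4:135856115-135857746), centred 838.5 bp downstream. Srsf7, which also acts in mRNA export, had one of 1961 bp at place 213, Srsf4 one of 2011 bp at place 937 and Srsf6 one of 1687 bp at place 1014. Srsf3 was also broad, with 3009 bp, but stood later, at place 3369. Taking the earliest peak of each, the 11 SR genes had a median place of 1014 (range 94 to 11398) and a median width of 1687 bp (range 635 to 3481).

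Not all SR genes were alike. Srsf12, the latest of the SR genes, had a single 690 bp peak at place 11398 that began 90 bp downstream of the start of its transcript model. The start in the RefSeq promoter table lies 281 bp downstream of that start, under this peak. Srsf5 and Srsf9 each had a pair of narrow peaks in place of 1 broad one. Those of Srsf5 were 635 bp wide at place 3653 (chr12:80945496-80946131, centred 309.5 bp downstream) and 453 bp at place 8589 (chr12:80946235-80946688, 957.5 bp downstream). Those of Srsf9 were 792 bp wide at place 2355 (chr5:115326755-115327547, centred 26 bp upstream) and 672 bp at place 6138 (chr5:115327663-115328335, 822 bp downstream). Srsf11 had a peak at each of its annotated starts, 4885 bp apart (1145 bp at place 1015, chr3:158030942-158032087, centred 239.5 bp downstream, and 1017 bp at place 3431, chr3:158036091-158037108, 39.5 bp downstream).

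The hnRNP peaks ranged from place 209 to place 12518. Hnrnpab, whose product binds AU-rich RNA, had a 2181 bp peak at place 209 (chr11:51605170-51607351), centred 620.5 bp downstream of the start. Hnrnpf, which binds G-rich tracts, had a 1590 bp peak at place 219 (chr6:117906762-117908352), centred 247 bp upstream. Of the peaks labelled with an Hnrnp symbol, that of Hnrnph3 was the widest, 3144 bp at place 3387 (chr10:63021901-63025045). It was centred 376 bp downstream and reached 1196 bp upstream and 1948 bp downstream of the start. The peaks at Hnrnpdl (3483 bp) and Hnrnpu (3277 bp), described above, were wider. Hnrnpr, which acts in axonal mRNA transport, carried 2285 bp at place 2122. Hnrnpl, which binds CA repeats, carried 1196 bp at place 2261, Hnrnpm, a regulator of exon skipping, 990 bp at place 3008 and Hnrnpc, a core hnRNP particle protein, 1160 bp at place 4023. The 17 Hnrnp peaks had a median place of 4023 and a median width of 1196 bp, with a range of 331 to 3144 bp.

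Late places in this family belonged partly to side peaks. Hnrnpd, which encodes the RNA decay factor AUF1, was named on a 477 bp peak at place 6880 that lay wholly upstream of its start. A 2812 bp peak without a label at place 259 (chr5:99976175-99978987) covered the start of Hnrnpd, with its centre 1357 bp inside the gene. Hnrnpa3 was likewise named on a 407 bp upstream peak at place 10795, while a 1351 bp peak at place 2240 that covered its start was labelled Gm6793. Hnrnph2, the member on X, was itself named only on a 458 bp peak at place 9838, lying 193 to 651 bp downstream of the start. The neighbouring gene Gla, whose start lies 281 bp away, was named on a 395 bp peak at place 10335. Hnrnph1, the autosomal relative of Hnrnph2, had a 1331 bp peak at place 2671 (chr11:50377709-50379040, centred 655.5 bp downstream). The second Hnrnph1 peak was 662 bp wide at place 9751 (chr11:50376816-50377478, 572 bp upstream). The genes of the hnRNP F/H group thus had earliest places from 219 to 9838.

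The Sm proteins form the ring that holds the spliceosomal snRNAs, and their genes had peaks of 921 to 1609 bp. Of 7 Sm ring genes, 6 were named, with a median place of 2743. Among these 6, Snrpd1 stood earliest with 933 bp at place 1481 (chr18:10617695-10618628, centred 365.5 bp downstream) and Snrpd2 latest with 921 bp at place 6101. Snrpb carried the widest peak, 1609 bp at place 2631 (chr2:130178182-130179791), centred 377.5 bp downstream of the start. Snrpe had 1200 bp at place 2645, Snrpd3 1118 bp at place 2841 and Snrpg 1454 bp at place 3873. The U1 and U2 snRNP genes were more scattered. Snrpa1, the U2 A′ protein, had 1096 bp at place 2617, Snrpc, the U1 C protein, 786 bp at place 6513 and Snrpb2, the U2 B″ protein, 481 bp at place 9119. All 9 Snrp peaks covered the transcription start and the end of exon 1, against 70.2% and 74.4% of all labelled peaks. The 9 Lsm peaks were close to this, with 8 over the start and 9 over the end of exon 1.

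Genes of the SF3 complexes, which bind the U2 snRNP to the branch point, had 8 peaks under their own symbols. Sf3b1, encoding the largest SF3B protein and often mutated in blood cancers, had a 1245 bp peak at place 3815 (chr1:55026188-55027433, centred 667.5 bp downstream). Its second peak, 219 bp at place 15150 (chr1:55027534-55027753, 165.5 bp upstream), was the latest of all 77. Of the 8 peaks, that of Sf3b4 was the earliest and widest, 1566 bp at place 2006 (chr3:96171798-96173364), centred 31 bp downstream of the start. Sf3b3 carried 1489 bp at place 2834, Sf3b5 685 bp at place 2889 and Sf3b2 614 bp at place 3808. The SF3A genes Sf3a1 (1023 bp) and Sf3a3 (809 bp) stood at places 2248 and 2449. By earliest peak, the 7 genes labelled with their own symbol fell between places 2006 and 3815, while the peaks at Sf3a2 (place 901) and Sf3b6 (place 5974), described above, lay outside that range.

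Both genes of U2AF, the dimer that recognises the 3′ splice site, had an early peak over or just inside the start with smaller peaks upstream. U2af2, the large subunit that binds the polypyrimidine tract, had 3 peaks. The first, 1250 bp at place 211 (chr7:5062187-5063437), began 44 bp downstream of the start and was centred 669 bp downstream. Those upstream were 352 bp at place 8522 (chr7:5061692-5062044, centred 275 bp upstream) and 584 bp at place 10477 (chr7:5060978-5061562, 873 bp upstream). U2af1, the small subunit that reads the terminal AG of the intron, had a 746 bp peak at place 919 (chr17:31658062-31658808, centred 319 bp downstream) and a 295 bp peak at place 10562 (chr17:31658877-31659172, 270.5 bp upstream).

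The Prpf genes, named after yeast pre-mRNA processing mutants, were all labelled, with a median width of 766 bp against 990 bp for all 77 peaks. Prpf19, a ubiquitin ligase that gives its name to a spliceosome subcomplex, stood earliest with 922 bp at place 706 (chr19:10895091-10896013), centred 321 bp downstream of the start. Prpf38b had the widest peak, 2243 bp at place 3150 (chr3:108909967-108912210), centred 615.5 bp downstream, and its relative Prpf38a 1275 bp at place 1633. 5 Prpf genes encode proteins of the U4/U6.U5 tri-snRNP, and human mutations in several of these cause retinitis pigmentosa. Prpf3 had 759 bp at place 3061, Prpf8, the core of the active site, 773 bp at place 3362 and Prpf31 881 bp at place 5531. Prpf4 had 505 bp at place 8726 and Prpf6 736 bp at place 9185. These 5 genes had a median place of 5531 and a median width of 759 bp. Other genes of the tri-snRNP, in the list of other spliceosome components, stood both earlier and in the same range. The earlier ones included Snu13 (1215 bp at place 357), Sart1 (1308 bp at place 489), Ppih (1058 bp at place 639) and Usp39 (931 bp at place 1303), and the others Eftud2 (1116 bp at place 3212), Snrnp200 (830 bp at place 5682) and Ddx23 (902 bp at place 6155).

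The other Prpf genes had peaks in early and late parts of the list. Prpf39, a U1-associated factor, had 568 bp at place 1919 (chr12:65036275-65036843, centred 225 bp downstream) and 445 bp at place 14564 (chr12:65036962-65037407, 850.5 bp downstream). Prpf4b, a kinase, had 1071 bp at place 2149. Prpf18, a factor of the second step, had 566 bp at place 8072. Prpf40b, a U1-associated factor, had 720 bp at place 9656, with its centre 325 bp upstream of the start.

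The Lsm genes included the ring that binds U6 snRNA and proteins of other RNA particles. Lsm5, a ring member, was the earliest with a 599 bp peak at place 390 (chr6:56704286-56704885), centred 113.5 bp downstream of the start. Lsm2 had 1178 bp at place 456, Lsm4 689 bp at place 3274 and Lsm6 919 bp at place 4421. Of the 7 ring genes, 4 carried their own symbol, with a median place of 1865. Lsm14b, which belongs to cytoplasmic mRNA granules, had the widest peak, 2239 bp at place 603 (chr2:180024261-180026500), centred 393.5 bp downstream, and its paralog Lsm14a 2162 bp at place 5421. Lsm10 (504 bp) and Lsm11 (1159 bp), parts of the U7 snRNP that processes histone mRNA, stood at places 5202 and 5015, and Lsm12 had 1274 bp at place 2260. The 9 peaks labelled with an Lsm symbol lay within the first 5421 places, and those of Lsm8 under its older symbol at places 10201 and 14946.

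**Figure D2:**
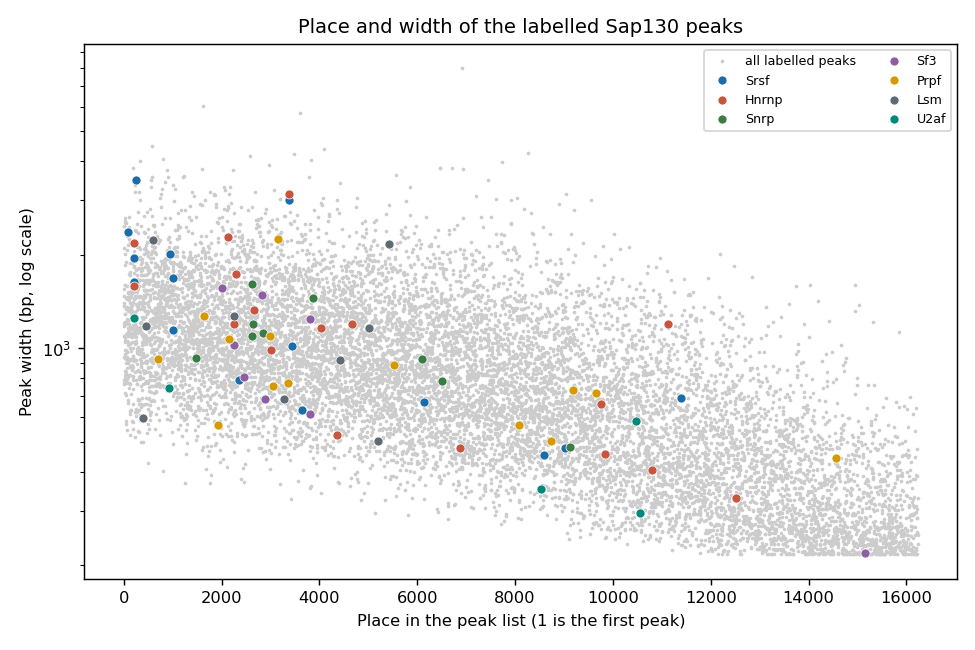
Place in the peak list (x axis) against peak width in bp (y axis, log scale) for all 12656 labelled peaks (grey) and the 77 member peaks (coloured by family). The coloured points lie mostly to the left, with a median place of 3274 against 6843.5 for all labelled peaks, and the Srsf peaks reach the top left.

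Seen together, the 77 peaks stood early in the list and were somewhat wider than labelled peaks in general. Their median place was 3274 (quartiles 2122 and 6513), against 6843.5 for all 12656 labelled peaks. Of the 77, 60 (77.9%) lay within the first 8115 places, against 58.8% of all labelled peaks. Within the first 500 places there were 9 (11.7%), against 3.78%. These 9 were the peaks of Srsf1, Srsf10, Hnrnpab, U2af2, Srsf7, Hnrnpf, Srsf2, Lsm5 and Lsm2. The median width was 990 bp (quartiles 635 and 1331), against 761 bp for all labelled peaks. At 2 kb or more there were 10 peaks (13%, against 3.66%), those of Srsf1, Srsf2, Srsf3, Srsf4, Hnrnpab, Hnrnph3, Hnrnpr, Prpf38b, Lsm14a and Lsm14b. Width fell along the list among the members (Spearman's rho = -0.66 over 77 peaks) much as among all labelled peaks (rho = -0.68 over 12656). These are descriptions across peaks of 1 list, and peaks are not replicates.

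The peaks lay over the start and the beginning of the gene body. A label needs a centre within 1 kb of the start, so a position near the start came with the choice of peaks. The same holds for all labelled peaks, which are given beside them. The median centre was 225 bp downstream of the start, against 196.5 bp for all labelled peaks. The start itself was covered by 56 peaks (72.7%, against 70.2% in general) and the end of exon 1, which is the first 5′ splice site, by 60 (77.9%, against 74.4%). These shares were close to those of all labelled peaks. The centre fell in intron 1 for 44 peaks (57.1%, against 39.7% of all labelled peaks), upstream of the gene for 16 (20.8%, against 22.7%), in the coding part of exon 1 for 9 (11.7%, against 14.7%) and in its 5′ untranslated part for 6 (7.79%, against 19.2%). That of Hnrnpab fell in intron 2 and that of the wider Hnrnph1 peak in exon 2. In all, 11 peaks began downstream of the start (14.3%, against 18% of all labelled peaks) and 10 ended upstream of it (13%, against 11.8%).

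**Figure D3:**
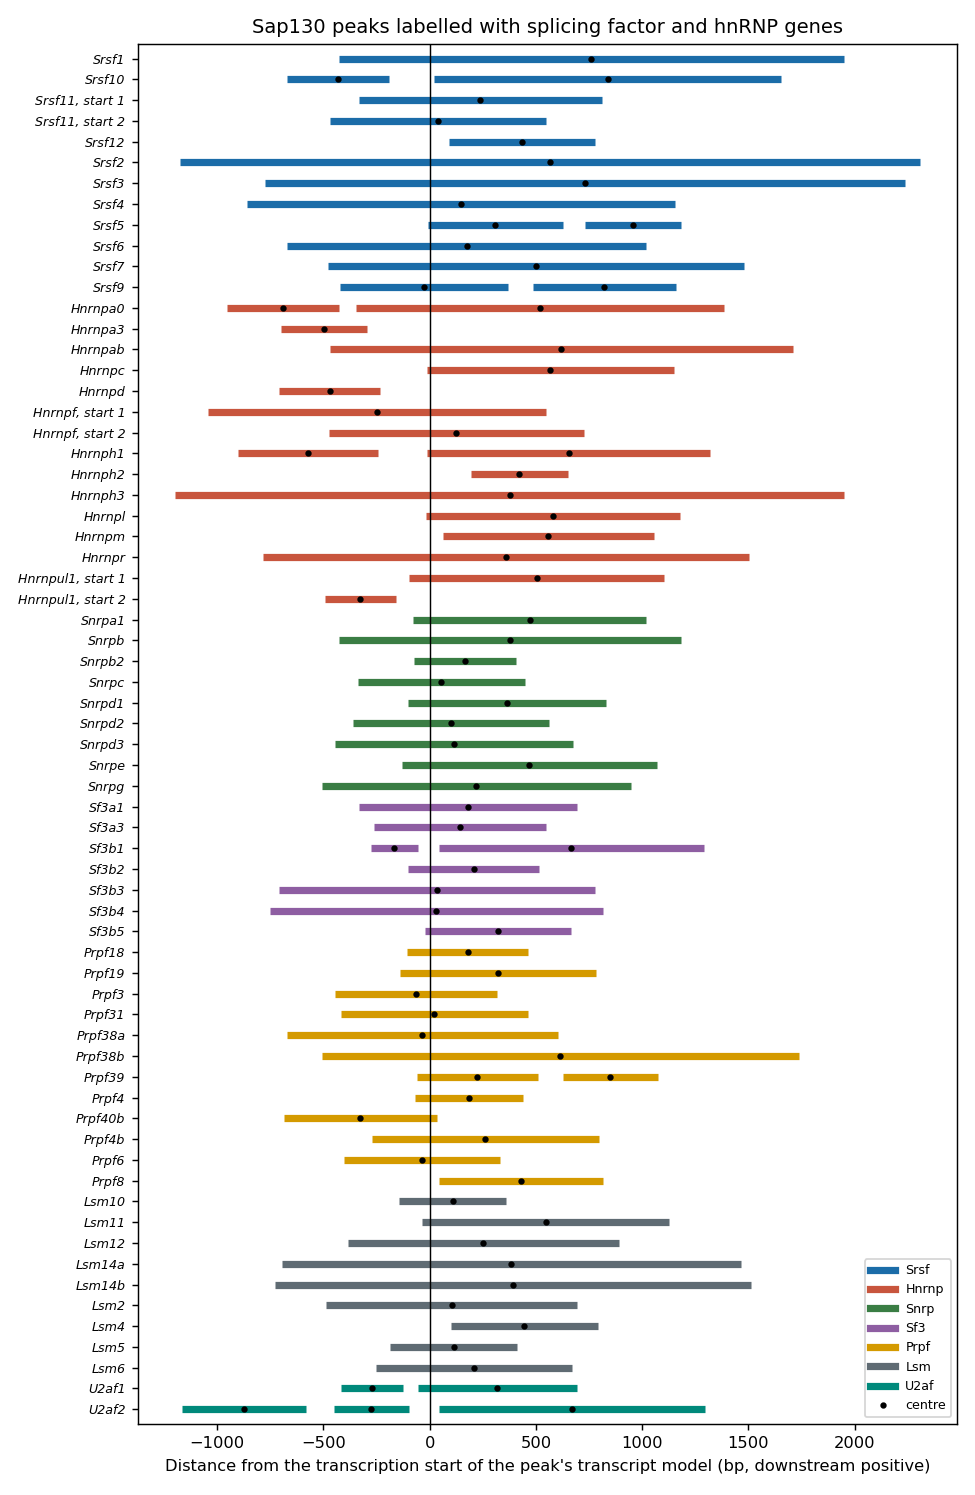
Extent of 76 of the 77 member peaks (bars, coloured by family) around the transcription start of its transcript model (x axis, bp, downstream positive), with the peak centre as a black dot and a separate row for each start of a gene. Most bars cross or begin near 0 and extend further downstream than upstream, Srsf2 and Srsf3 reaching 2308 and 2236 bp into the gene, while genes such as U2af2, Sf3b1 and Srsf5 show bars separated by a short gap.

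More than 1 peak was found at 12 of the 64 genes (18.8%, against 16% of all labelled genes). U2af2 had 3 and the other 11 had 2. At Hnrnpf and Srsf11 the peaks marked starts 9490 and 4885 bp apart, the later Hnrnpf peak being 1198 bp wide at place 11124 (chr6:117916821-117918019, centred 126 bp downstream of its own start). The other pairs were neighbours at 1 promoter, 11 in number, separated by 69 to 231 bp (median 116 bp). They were at Hnrnpa0 (1730 and 525 bp wide, 82 bp apart), Hnrnph1, Hnrnpul1 (83 bp apart), Prpf39, Sf3b1, Srsf10, Srsf5, Srsf9, U2af1 and, with a pair of gaps, U2af2. The upstream peak of Srsf10 was 479 bp wide at place 9026 (chr4:135855421-135855900, centred 431.5 bp upstream). The peaks of Hnrnpa0, a gene with a single exon, stood at place 2288 (chr13:58127172-58128902, centred 519 bp downstream) and place 4365 (chr13:58128984-58129509, 690.5 bp upstream). Those of Hnrnpul1 were 1199 bp wide at place 4665 (chr7:25753598-25754797, centred 503.5 bp downstream) and 331 bp at place 12518 (chr7:25754880-25755211, 325.5 bp upstream). In 12 of the 13 pairs of neighbours the earlier peak was also the wider. The sources used here do not say how neighbouring peaks were joined or split.

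Within the RefSeq bounds of the genes, 7 members held 1 further peak each, 6 of them without a label. Those of Hnrnpd and Hnrnpa3 covered the start, as described above. The other 5 did not. They were 1624 bp wide at Hnrnpl (place 11783, centred 1506 bp upstream of the start named in the table), 789 bp at Hnrnpa0 (place 11652, 2007.5 bp downstream), 753 bp at Hnrnpul1 (place 10993, 1181.5 bp upstream), 267 bp at Srsf6 (place 15803, 1327.5 bp downstream) and 220 bp at Srsf9 (place 15337, 1348 bp downstream). Those of Hnrnpl and Hnrnpul1 lay at the outer 5′ end of the RefSeq gene, which reaches further upstream than the start named in the table. No other peak overlapped any of the 64 genes over their whole length.

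Head-to-head promoters, where another protein-coding gene starts on the opposite strand within 1 kb upstream, were found for 10 of the 64 genes (15.6%, against 9.01% of labelled protein-coding genes). Starts were taken from the RefSeq promoter table used here, which is not complete. The closest pairs were Prpf31 with Tfpt (starts 56 bp apart), Sf3a1 with Ccdc157 (61 bp), Snrpd3 with Gucd1 (70 bp) and Prpf38a with Orc1, a subunit of the origin recognition complex (118 bp). Prpf4 with Cdc26, Sf3b3 with Cog4, Hnrnph2 with Gla, Hnrnph3 with Pbld2 and Srsf2 with Mfsd11 were further apart. In 4 of the 10 pairs (40%, against 49.2% of all protein-coding genes) the partner also had a labelled peak, among them Gla, Cdc26 and Gucd1. A peak carries at most 1 label. In each of the other pairs the member's own peak reached upstream past the partner's start, so a missing label there is not a start without a peak.

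The promoters of these genes were rich in CpG dinucleotides. In the 300-base windows, the 55 members had a median of 25 CpG, a GC content of 60.3% and an observed over expected CpG ratio of 0.92. Protein-coding genes with a labelled peak had medians of 23 CpG and 62.7% GC, and those without one 4 CpG and 50.3% GC. The ratio had a median of 0.81 over 8339 protein-coding genes with a labelled peak and of 0.25 over 8444 without one. A ratio of at least 0.6 was found in 54 of the 55 (98.2%), in 83.2% of labelled and in 19% of unlabelled genes. The exception was Snrpa1, with 7 CpG and a ratio of 0.365, whose peak is nonetheless 1096 bp wide at place 2617. Hnrnpa0 had the most, 52 CpG. Since CpG content differs between genes with and without a labelled peak over the whole list, its part in the members' share was not tested.

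**Figure D4:**
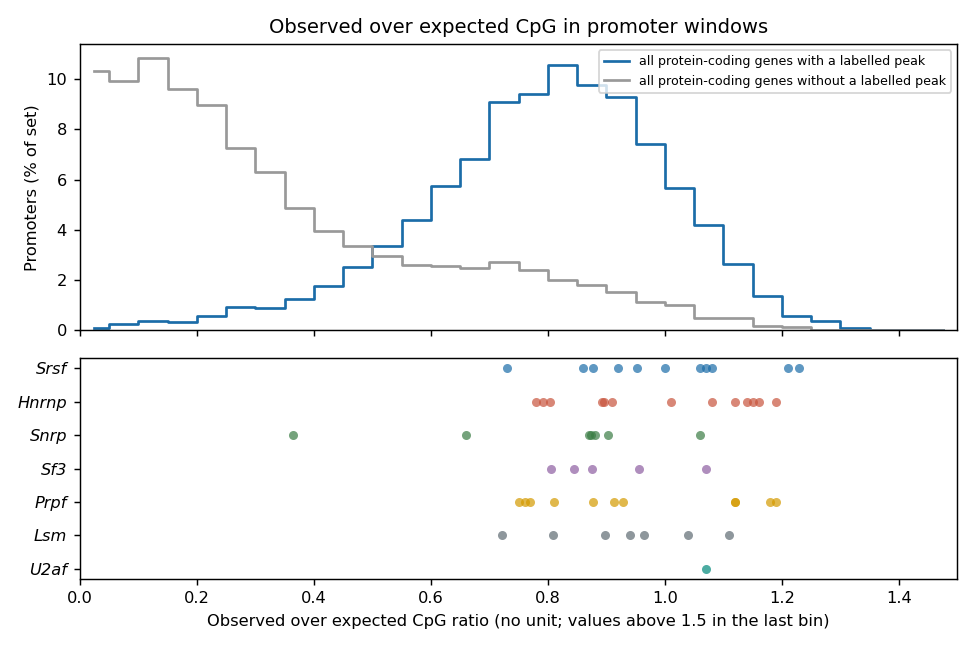
Upper panel: observed over expected CpG ratio in 300-base promoter windows (x axis) for all protein-coding genes with and without a labelled Sap130 peak, as a percentage of each set (y axis). Lower panel: the 55 member genes with a window, 1 point each, by family. All points but that of Snrpa1 (0.365) lie at or above 0.66.

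Short motifs of common promoter factors were counted in the same windows on both strands. An ETS-type site, CCGGAAG, was present in 18 of 55 member windows (32.7%), in 19.7% of windows of labelled genes and in 12.6% of all 16783 windows. The CCAAT box, CCAAT, was present in 30 (54.5%), against 38.9% and 39.2%. By family, CCAAT was found in 10 of 13 Hnrnp, 5 of 7 Lsm, 6 of 11 Prpf, 4 of 11 Srsf, 2 of 5 Sf3 and 2 of 7 Snrp windows and in the 1 U2af window. The ETS-type site was found in 4 of 5 Sf3, 4 of 7 Snrp, 4 of 11 Srsf, 4 of 11 Prpf, 1 of 7 Lsm and 1 of 13 Hnrnp windows and not in the U2af window. Differences between families were not tested. In the sequences shown, the Hnrnpab window holds CCAAT on both strands with a TATAAA just after the start, and the Lsm5 window holds CTTCCGG, the ETS-type site on the other strand, upstream of and just after the start.

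Of the other 8 motifs, the Sp/KLF site was the most common, and the rest were each in fewer member windows than the ETS-type site. The Sp/KLF site GGGCGG was in 72.7% of member windows and 71.6% of labelled ones, against 48.7% of all windows. The E2F-type site TTCCCGC was in 14.5%, against 9.41% and 6.35%, and the E-box CACGTG in 14.5%, against 10.8% and 8.10%. The NRF1-type site CGCATGCG was in 4 windows (7.27%, against 4.59% and 2.69%), the element CTCGCGAGA in 3 (5.45%, against 1.81% and 1.08%), the YY1-type site AAGATGGCG in 2 (3.64%, against 3.51% and 2.09%) and the cAMP response element TGACGTCA in 1 (1.82%, against 3.60% and 2.37%). TATAAA was in 5 (9.09%, against 5.73% and 13.0%), those of Hnrnpab, Srsf2, Sf3b3, Hnrnpm and Srsf3. Prpf4 held none of the 10. Matches to GGGCGG and TTCCCGC can overlap on opposite strands. A match describes the letters of a window and does not show that a factor binds there.

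Genes that work with these families were mostly labelled as well. Counted by transcript so that older symbols are included, the 7 families reached 68 of 81 (84.0%, interval 74.1 to 91.2). Of 55 other spliceosome components, 53 (96.4%) had a labelled peak, with Crnkl1 (838 bp at place 221, chr2:145934280-145935118, centred 1 bp downstream) and Snu13 (1215 bp at place 357 under the label Nhp2l1, chr15:82046634-82047849, 356.5 bp downstream) the earliest. The exceptions were Phf5a and Bud31. Bud31 had a 1819 bp peak at a gene end, at place 1226 and labelled Pdap1 (chr5:145139158-145140977). All 16 genes of snRNP assembly were labelled, led by Strap (1024 bp at place 566, chr6:137735099-137736123, centred 529 bp downstream) and Wdr77 (744 bp at place 862, chr3:105959357-105960101, 231 bp downstream). Smn1, whose human counterpart is lost in spinal muscular atrophy, had a 910 bp peak at place 2612.

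Of 9 exon junction complex genes 7 were labelled (77.8%, interval 40 to 97.2), with Pnn (1254 bp at place 1601, chr12:59066503-59067757, centred 211 bp downstream) and Magoh (738 bp at place 1732, chr4:107879609-107880347, 165 bp downstream) the earliest. Casc3 and Sap18 were not, although each had a peak at a gene end. That of Casc3 was 905 bp wide at place 956, labelled Gm12359 (chr11:98809698-98810603), and that of Sap18 1553 bp at place 6132, labelled Mir3077 (chr14:57797807-57799360). Of 8 kinases that phosphorylate SR proteins 7 were labelled (87.5%, interval 47.3 to 99.7), led by Srpk1 (1583 bp at place 248, chr17:28621266-28622849, centred 396.5 bp downstream) and Clk2 (1059 bp at place 1330, chr3:89164426-89165485, 150.5 bp downstream), while Srpk3 had no peak at either end. The intervals of the exon junction and kinase lists both hold the 49.2% of all protein-coding genes.

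Regulators of alternative splicing, many of them restricted to certain tissues, were labelled in 30 of 40 cases (75%, interval 58.8 to 87.3). Ewsr1 (2739 bp at place 287, chr11:5097578-5100317, centred 129.5 bp downstream) and Pcbp1 (4001 bp at place 339, chr6:86523591-86527592, 573.5 bp downstream) stood first. No label and no peak at either gene end was found for the neuronal regulators Rbfox1 and Rbfox3 or for Celf2, nor for the epithelial regulators Esrp1 and Esrp2. Elavl3, Srrm3, Srrm4, Qk and Rbmx had no label but a peak at a gene end. That of Elavl3, a neuronal RNA-binding protein gene, was 2108 bp wide at place 989 (chr9:22049902-22052010), and that of Srrm4, a regulator of neuronal microexons, 3677 bp at place 4371 (chr5:116588795-116592472), both without a label. Srrm3, its relative, had 220 bp at place 15776 (chr5:135806889-135807109), also without one. Qk had 1013 bp at place 2828 labelled B930003M22Rik (chr17:10319901-10320914), and Rbmx 1783 bp at place 3830 labelled Snord61 (chrX:57391198-57392981). The median place of the labelled regulators was 4004.5, against 3212 for the other spliceosome components.

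**Figure D5:**
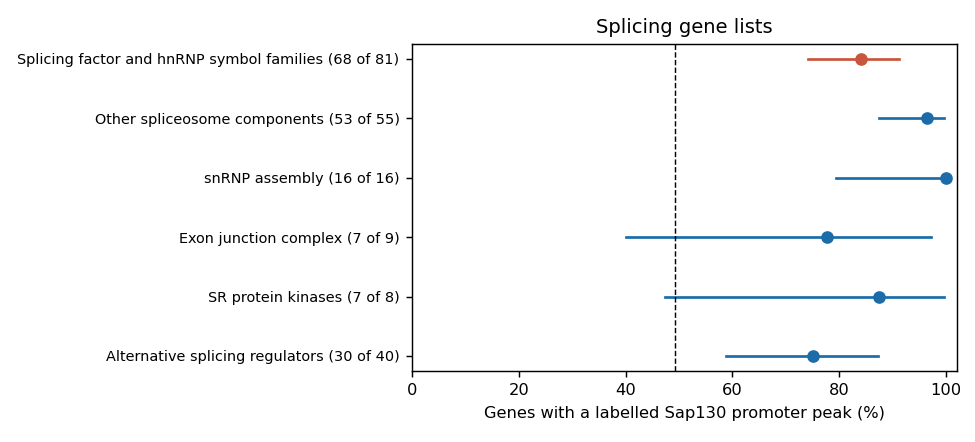
Share of genes with a labelled Sap130 promoter peak (x axis, percent) in the 7 symbol families and 5 other lists of splicing genes (y axis, with the counts), all matched by transcript. Points are shares, bars are exact 95% intervals for counting error only, and the dashed line is the 49.2% of all protein-coding genes.

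The labelled tissue was checked on markers of cell types that brain can contain. A labelled peak was present for 5 of 6 neural progenitor markers and 5 of 6 neuron markers, with Nes and Dcx the exceptions, each with an unlabelled peak at a gene end. None of 5 erythroid markers (exact 95% interval 0 to 52.2%) and none of 4 microglia markers (0 to 60.2%) had one, although the erythroid marker Klf1 had an unlabelled 619 bp peak at a gene end, at place 12354. The interval of either brain list was 35.9 to 99.6%, and the 49.2% of all protein-coding genes lay inside all 4 intervals. A peak list shows where Sap130 was found and not which genes are expressed, and the share of each cell type in the tissue is unknown.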

How the data were processed

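The authors deposited 1 table of peaks from 1 Sap130 ChIP library and 1 input library. Per the submitters' processing notes, Bowtie 1.1.2 and MACS2 2.1.0.20140616 were used with GRCm38 (mm10). Alignment settings, the peak threshold, filters, the treatment of reads with several matches and what orders the list are not stated in the labels or notes. Per the file headers, the table holds positions and a gene annotation, and no count, fold or p-value.

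Transcript bounds in the deposited table count from 0 at both ends and were raised by 1. Peak coordinates are printed as deposited. Centres stand midway between start and end. Labels were matched to GRCm38.p6 RefSeq genes by transcript accession (12520) or by symbol and synonym (134), with 2 unmatched. The background was 20953 protein-coding genes. Members, gene lists and complexes were chosen with earlier results of these data known, so they are not independent of them. Every member is named except 1, and that gene and 1 peak in another list are not reported here. Coordinates, width, place and centre are given for the earliest and widest peak of each family, every gene with several peaks and every family gene without a labelled peak, and in the other splicing lists for the 2 earliest genes and those without a labelled peak. No centre is given where the table or the promoter table names no start, or for unlabelled genes of the other lists. Further genes were chosen after their values were seen. Where several promoter windows exist for a labelled gene, the one nearest the authors' start was used, and for other genes the one with the lowest coordinate.

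Shares are given beside those of all features, with exact 95% intervals where stated. No test was run, since there is 1 library of each kind. The position and motif code was tested on simulated data. Python 3.11.15, numpy 2.4.6 and scipy 1.17.1 were used.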

Additional observations from a re-analysis of the deposited data

How the results depend on the processing

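The share of family genes named on a peak (79.0%) depended on how a peak was tied to a gene. It was 64.2% with the centre within 500 bp of the start (44% of all protein-coding genes), 61.7% among the widest 8115 peaks (31.6%) and 96.3% for any peak overlapping the 1 kb around a gene end (52%). It stayed within its counting interval among the first 8115 places (70.4%, against 33% of all protein-coding genes) and without X (78.8%, against 49.8%). The same was true with labels matched by transcript (84.0%, against 49.2%), a setting chosen after seeing the data. Adding genes without a curated transcript could change only the comparison, which became 47.7%, and left the members' share at 79.0%. Under each of these 7 settings the members' share was above the share of all protein-coding genes. With the earliest peak at either gene end in place of the labelled one, also chosen after seeing the data, the median width of the peaks rose from 990 to 1187 bp and the median place moved from 3274 to 2638. The same change gave 886 bp and place 5374 over all genes with such a peak. Median width, place and offset stayed within their intervals with 1 peak per gene or with centres within 500 bp. The median offset was above that of all labelled peaks as reported (225 against 196.5 bp) and below it with centres within 500 bp (167.5 against 171.5 bp). Stricter peak thresholds were not run because the table gives no score. With unknown depth and 1 ChIP library, a missing peak is not shown to be missing binding. No paired analysis was possible because neither the ChIP nor the input has a second library.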
